A study of Homo sapiens with 9 samples.

Results

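The USP17L genes encode deubiquitinases of the USP17 (DUB3) type and are present in the human genome as many near-identical copies. They were followed here in the established human melanoma line WM983B through every array probe whose gene symbol starts with USP17L. The family had been chosen by its log2 differences between the corin, MS-275 and vehicle arrays, which are therefore described without a test. This gave 5 of 53617 probes, which carry 4 symbols: USP17L10, USP17L12 and USP17L15 with 1 probe each and USP17L9P with 2. Cells received corin (2.5 µM), MS-275 (2.5 µM) or the DMSO vehicle over 24 h, and RNA of each group was read on Affymetrix Human Gene 2.0 ST arrays, 3 per group and 9 in all. MS-275, also called entinostat, inhibits class I histone deacetylases through its benzamide group. Corin joins a benzamide zinc binding group of this kind to a tranylcypromine-type warhead directed at the demethylase LSD1. The labels write corin2 for the compound, taken here as the corin of the study. All values are from 1 cell line. The methods describe the array data as representative of 3 independent experiments, while the sample labels give a replicate number and no culture, so the p-values reflect how far the arrays of a group differ from each other.

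USP17 enzymes are cysteine proteases that remove ubiquitin from other proteins and so can spare them from degradation by the proteasome. Their open reading frames lack introns and lie in tandem repeats, the RS447 megasatellite, whose copy number differs between people. The first members were found as genes induced by cytokines in mouse lymphocytes. In human cells, USP17L copies are among the genes switched on by DUX4, a transcription factor of the early embryo.

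In the RefSeq gene table (assembly GRCh38.p14), 29 genes carry a USP17L symbol, 23 on chromosome 4 and 6 on chromosome 8. The 4 symbols measured here all belong to the copies on chromosome 4. The table lists USP17L10, USP17L12 and USP17L15 as protein coding and USP17L9P as a transcribed pseudogene. USP17L2, the copy on chromosome 8 that is best known as DUB3, was not analysed here. The copies are so alike that a probe can take up RNA of several of them. A signal is therefore given for a probe and not ascribed to 1 copy, and the number of copies in WM983B cells was not measured.

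The USP17L12 probe was far higher with corin than in either other group. Its log2 signal was 9.88, 10.00 and 9.88 on the corin arrays, 6.10, 6.14 and 6.14 on the MS-275 arrays and 5.05, 5.25 and 4.85 on the vehicle arrays. The order was corin, then MS-275, then vehicle, and no array of a group overlapped with another group. The means were 9.92 ± 0.07 for corin, 6.13 ± 0.02 for MS-275 and 5.05 ± 0.20 for vehicle (SD, n = 3 arrays each). The corin signal was thus 29.3-fold that of vehicle and 13.8-fold that of MS-275. MS-275 was 2.12-fold above vehicle, or 1.08 on the log2 scale, a little past the threshold of 0.965 log2 units (nearly a doubling) used throughout. The methods set this threshold for a strong change from the SD of the log2 fold changes, where they describe comparing corin with MS-275. Here it was applied to every comparison.

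The first USP17L9P probe (16965015) had the same value as the USP17L12 probe (16965002) on each of the 9 arrays, to every digit deposited. The 2 symbols therefore stand for 1 measurement. Identical rows of this kind were not rare on this platform, with 2102 probes (3.92% of all) in 791 sets of rows that match on all 9 arrays. On the MS-275 arrays of replicates 2 and 3 the USP17L12 values were also equal to each other, as happened between 2 MS-275 arrays for 3.71% of all probes.

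USP17L15, listed next to USP17L12 by probe number, showed the same order of groups. Its log2 signal was 7.77, 8.04 and 7.34 with corin, 4.35, 4.44 and 4.38 with MS-275 and 3.71, 3.52 and 3.26 with vehicle. No groups overlapped. This came to 18.6-fold over vehicle and 10.0-fold over MS-275 with corin, while MS-275 lay 1.85-fold above vehicle, a log2 difference of 0.89 that fell just short of the threshold. Without vehicle replicate 1 the log2 difference between MS-275 and vehicle was 0.999, so that a single array decided on which side of the threshold it fell.

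USP17L10 was higher with corin alone. Its log2 signal was 6.41, 6.72 and 6.39 with corin, 3.83, 4.28 and 3.51 with MS-275 and 3.44, 4.21 and 3.56 with vehicle. The corin arrays stood apart, at 6.84-fold over vehicle and 6.22-fold over MS-275. MS-275 and vehicle overlapped, and their difference of 0.14 on the log2 scale was smaller than the SD within either group, 0.39 with MS-275 and 0.41 with vehicle.

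The second USP17L9P probe (16965035) gave values of 2.40, 3.03 and 3.17 with corin, 2.27, 1.86 and 2.35 with MS-275 and 2.54, 2.17 and 1.97 with vehicle. On every array it lay below the median probe of that array, which was between 4.05 and 4.12, so its differences are of uncertain size. Corin and vehicle overlapped, at a log2 difference of 0.64, and so did MS-275 and vehicle, at -0.07. The lowest corin array was only slightly above the highest MS-275 array. The 2 probes of the same symbol thus disagreed, with 29.3-fold and 1.56-fold between corin and vehicle.

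**Figure D1:**
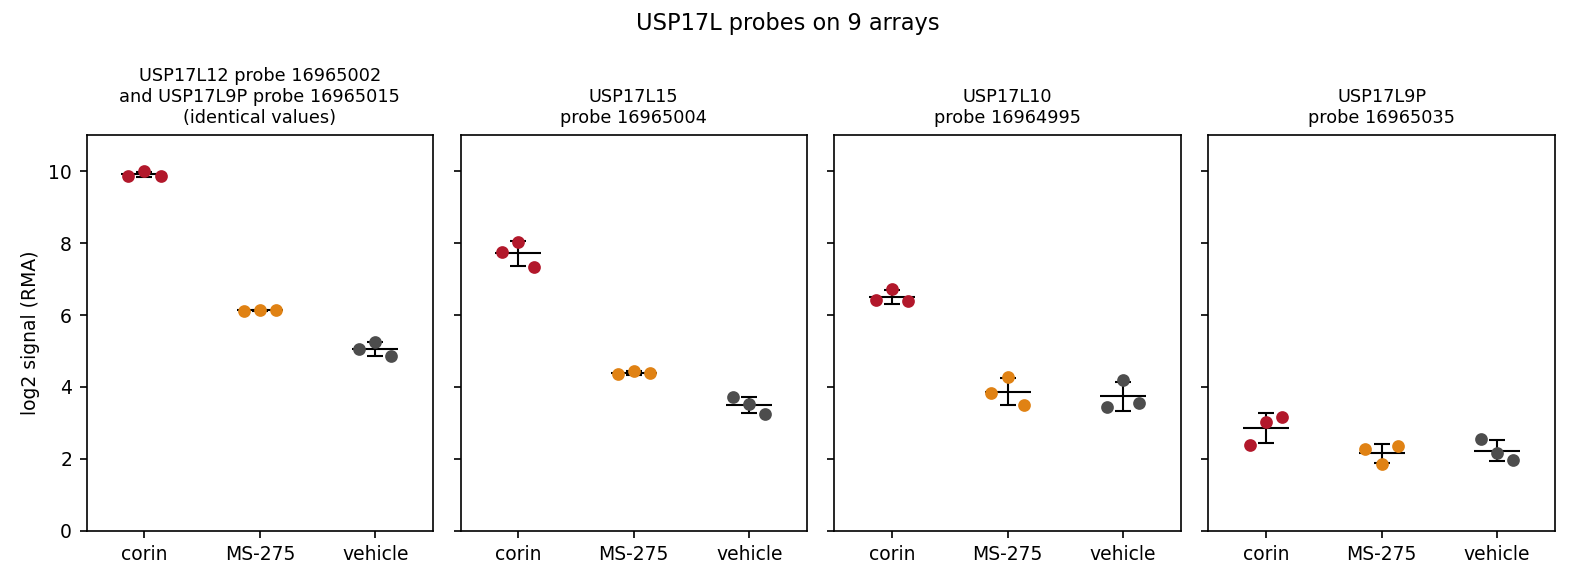
Log2 RMA signal (y axis) of the USP17L probes on the corin, MS-275 and vehicle arrays (x axis). Points are the 3 arrays of a group and bars the mean ± SD. The corin arrays are highest in the first 3 panels, at means of 9.92, 7.72 and 6.51, while the second USP17L9P probe reaches 3.17 at most.

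Of the 5 probes, 4 passed the threshold of 0.965 log2 units between corin and vehicle, all of them higher with corin, against 5.31% of all probes that were higher by as much. Between corin and MS-275 the same 4 passed, against 2.93% of all probes. Between MS-275 and vehicle 2 passed, the pair with identical values, against 1.77% of all probes. Arrays did not overlap for 4, 5 and 3 of the probes in these comparisons, all higher in the first-named group, and 18.7%, 16.8% and 12.7% of all probes met the same condition. The counts are given for orientation, since the probes were picked with these contrasts in view. They also overstate the number of measurements, because the 5 probes hold 4 distinct rows of values.

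Across the 9 arrays the USP17L12 and USP17L15 rows correlated at Pearson's r = 0.995, USP17L12 and USP17L10 at 0.968, and USP17L15 and USP17L10 at 0.964. The second USP17L9P probe correlated with these 3 at 0.696 to 0.737. The points share arrays and fall in 3 groups, so that r mainly reflects the distance between groups.

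The probes numbered from the first to the last USP17L probe were also read, a set chosen after its values were seen. There are 19 of them, the 5 with a USP17L symbol and 14 with no symbol here, whose genes are therefore not named. All 14 were past the threshold and higher with corin than with vehicle, against 5.31% of all probes. With MS-275 over vehicle 13 were so, against 1.77% of all probes. These counts overstate the number of measurements, because 6 of the 14 hold 1 and the same row of values. That row also sets the medians that follow. The group means of the 14 had a median of 10.2 for corin (6.04 to 10.4), 6.27 for MS-275 (4.25 to 6.33) and 5.03 for vehicle (3.82 to 5.04). The log2 difference between corin and vehicle had a median of 5.16 and ranged from 1.98 to 6.03, and that between MS-275 and vehicle had a median of 1.24 and ranged from 0.18 to 1.64.

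Within these 14 unnamed probes, 6 had identical values on all arrays, namely 10.12, 10.30 and 10.15 with corin, 6.10, 6.34 and 6.36 with MS-275 and 5.05, 5.07 and 4.96 with vehicle. The probe farthest apart was 16965027, whose signal was 9.94, 9.86 and 9.74 with corin, 5.53, 5.14 and 5.70 with MS-275 and 4.06, 3.84 and 3.55 with vehicle. The probe with the smallest change was 16965019, at 5.76, 6.20 and 6.16 with corin, 4.12, 4.23 and 4.39 with MS-275 and 3.75, 4.15 and 4.30 with vehicle. As in USP17L10, corin stood apart and MS-275 and vehicle overlapped. The pattern did not end at the last USP17L probe number. Past it, the unnamed probe 16965037 held the same values as the 6 identical probes. Unnamed probe 16965039 had log2 differences of 4.93 between corin and vehicle and 1.14 between MS-275 and vehicle. For unnamed probe 16965041 these differences were 0.02 and -0.11.

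**Figure D2:**
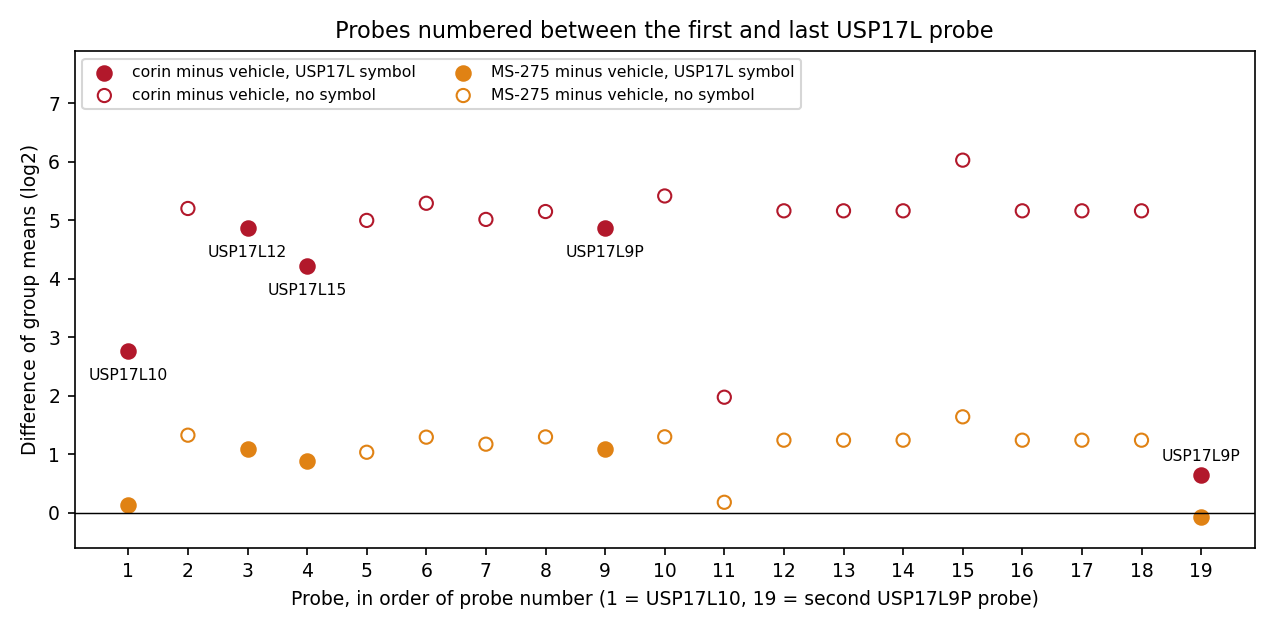
Difference of group means on the log2 scale (y axis) for the 19 probes numbered from USP17L10 to the second USP17L9P probe, in order of number (x axis). Filled points carry a USP17L symbol and open points none. Most corin points lie near 5, with USP17L10, 1 unnamed probe at 1.98 and the second USP17L9P probe lower, while the MS-275 points reach 1.64 at most.

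Named genes outside the family were ranked by how closely they followed the USP17L profile. Each gene was set to its own vehicle mean and compared over the 9 arrays with the mean of the 4 distinct USP17L rows, by the root mean square difference. The closest was C3, the central component of complement, with a root mean square difference of 0.133 log2 units and r = 0.996. ASNS (asparagine synthetase) followed at 0.165, then ZSCAN5B (a zinc finger gene) at 0.19, AFAP1-AS1 (an antisense transcript) at 0.23, BPIFC at 0.233, the miRNA genes MIR3689D2 and MIR3689B at 0.245 and 0.252, and INSIG1, a regulator of sterol synthesis, at 0.268. The brightest probe stood for each gene here. Over single probes, a second probe of PRAMEF5 (0.134) came between C3 and ASNS. The mean profile was pulled down by the dim USP17L9P probe. Set against the USP17L12 row alone, a choice made after the data were seen, the closest named genes were ULBP1 (0.215), a ligand of a natural killer cell receptor, and SLPI (0.226), a secreted protease inhibitor. These 8 genes and the 2 closest to USP17L12 are those with the smallest differences among 14884 named genes, fewer the USP17L genes themselves.

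Other genes were read from limma fits over all 14884 named genes, and a gene was called where its Benjamini-Hochberg adjusted p was under 0.05 and its log2 difference reached 0.965 in either direction. Every gene past that difference also had an adjusted p under 0.05, so that the size of the difference alone set the calls. Of all named genes, 7.64% were higher and 8.04% lower with corin than with vehicle, 3.2% higher and 0.517% lower with MS-275 than with vehicle, and 2.55% higher and 3.94% lower with corin than with MS-275. The median log2 difference over all named genes was -0.04, -0.03 and -0.03 in these comparisons. The comparisons of corin and of MS-275 with vehicle share the vehicle arrays.

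Genes known as DUX4 targets or as expressed in cleavage stage embryos formed 1 list, of which 42 of 61 members were measured. Against vehicle, corin raised 8 of the 42 (19%) and lowered 2, at a median log2 difference of 0.12. Without vehicle replicate 2, or without corin replicate 2, only 1 was lower. Between corin and MS-275, 7 were higher and 0 lower (1 lower by limma's adjusted p whatever the fold, 2 at an unadjusted p under 0.05), at a median of 0.17. With MS-275, 1 was higher than vehicle and 0 lower (0 also by limma's adjusted p whatever the fold, 3 at an unadjusted p under 0.05). Only 4 of the 42 had a mean signal at or above that of the median gene, and in that smaller set 2 were higher with corin than with vehicle and 1 higher than with MS-275.

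The members that were higher with corin were PRAMEF4, PRAMEF15, PRAMEF20 and PRAMEF5, the MBD3L genes MBD3L2, MBD3L3 and MBD3L5, and ZNF280A, a zinc finger gene. PRAMEF genes are relatives of the melanoma antigen PRAME and MBD3L genes are relatives of the methyl-CpG binding protein MBD3, and both are clustered multicopy families like USP17L. PRAMEF4 had a log2 signal of 7.03, 7.17 and 6.72 with corin, 3.48, 3.33 and 3.02 with MS-275 and 3.16, 2.79 and 2.89 with vehicle. Its corin signal was 16.3-fold that of vehicle (4.03 ± 0.15 on the log2 scale, standard error, with an adjusted p of 1.3e-09 from limma) and 12.9-fold that of MS-275 (adjusted p = 9.6e-09). ZNF280A was at 9.30, 9.38 and 9.13 with corin, 6.07, 6.06 and 5.98 with MS-275 and 5.21, 5.38 and 5.41 with vehicle. Corin was 15.3-fold over vehicle (adjusted p = 6.0e-11 from limma) and 9.42-fold over MS-275 (adjusted p = 1.0e-09), and all 3 groups were separate, as for USP17L12.

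MBD3L2 had a log2 signal of 6.46, 6.41 and 6.33 with corin, 4.16, 4.65 and 4.90 with MS-275 and 4.104, 4.78 and 3.95 with vehicle. MS-275 and vehicle overlapped, and the 95% interval of their log2 difference was -0.18 to 0.76. With corin it was 4.36-fold over vehicle and 3.56-fold over MS-275 (adjusted p = 5.1e-06 and 4.0e-05 from limma). PRAMEF20 was the 1 listed gene called higher with MS-275 than with vehicle, at 2.55-fold (adjusted p = 5.4e-05 from limma), and it was 6.27-fold over vehicle with corin.

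Among the members not called were genes of transcription factors of the cleavage stage embryo. ZSCAN4 differed by 0.21 on the log2 scale between corin and vehicle (adjusted p = 0.227 from limma), LEUTX by -0.07 (adjusted p = 0.556 from limma) and DUXA by 0.15 (adjusted p = 0.442 from limma). The demethylase gene KDM4E differed by -0.06 (adjusted p = 0.763 from limma), and TRIM43, of another multicopy family, by 0.43 (adjusted p = 0.0599 from limma). These 5 genes were singled out after their values were seen. DUX4 itself was not analysed here. Of PRAMEF genes, PRAMEF10 and PRAMEF22 were the 2 lower with corin than with vehicle, at log2 differences of -1.11 and -1.10. As with USP17L, copies of PRAMEF and MBD3L may share signal, and the 2 probes of PRAMEF5 gave 1.39 and 3.05 for the log2 difference between corin and vehicle.

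**Figure D3:**
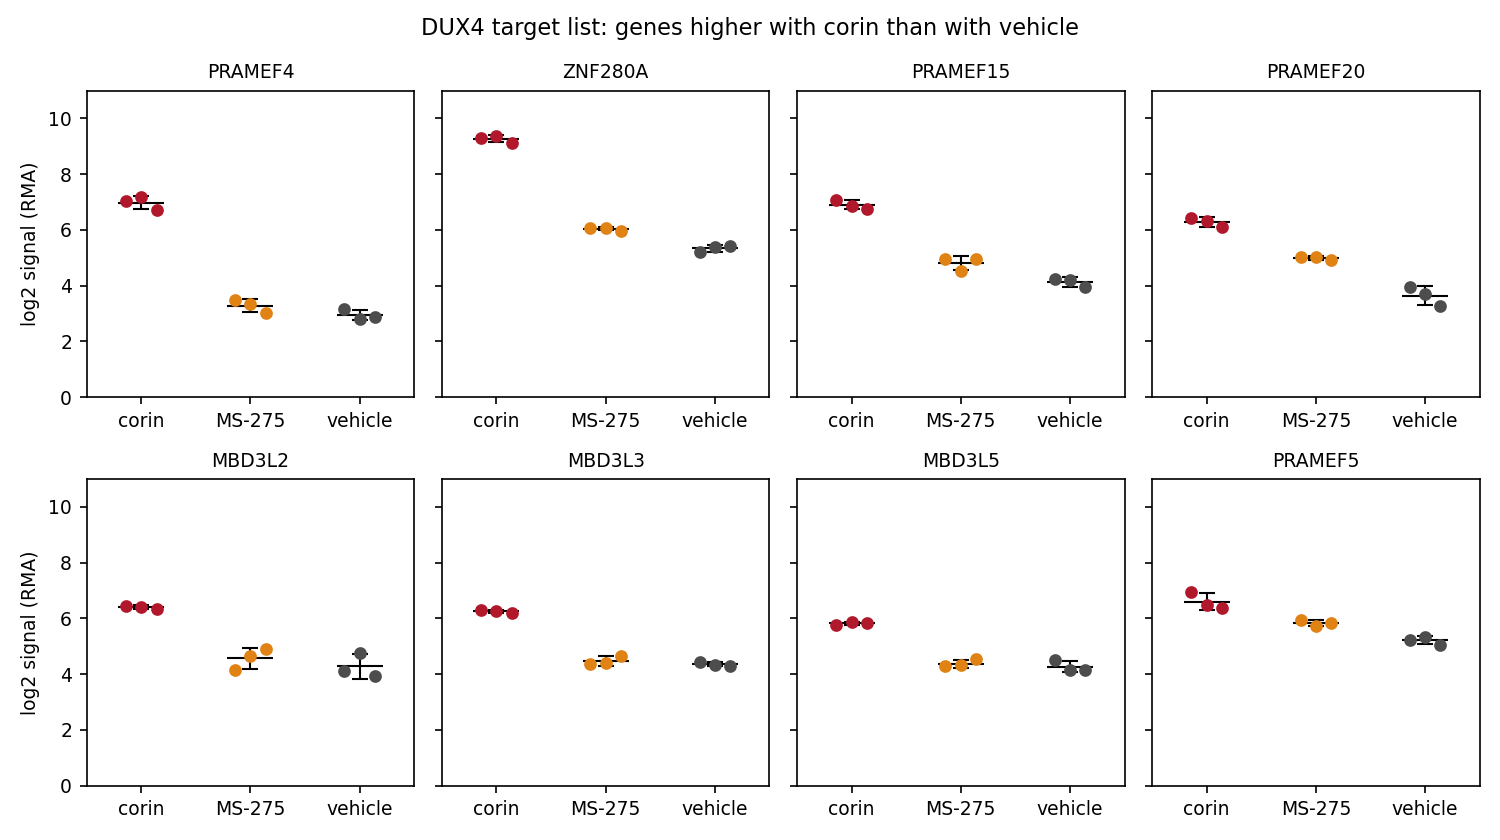
Log2 RMA signal (y axis) of the 8 genes of the DUX4 target list that were called higher with corin than with vehicle, on the corin, MS-275 and vehicle arrays (x axis). Points are arrays and bars the mean ± SD of 3. The corin arrays lie above all vehicle arrays in each panel, and MS-275 passes the threshold over vehicle in PRAMEF20 alone, at means of 4.99 with MS-275 and 3.64 with vehicle.

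The list of neighbours held families with members beside the repeats (defensins, FAM90A, ZNF705 and SPAG11 genes), taken by symbol wherever they lie. It also held the 5 protein coding genes on each side of each run of USP17L genes. Of its 41 members 15 were measured, and 4 were higher and 1 lower with corin than with vehicle, 3 higher and 0 lower with corin than with MS-275, and 0 called in either direction with MS-275 against vehicle. By limma's adjusted p whatever the fold, 1 fell with corin relative to MS-275 (1 at an unadjusted p under 0.05), and for MS-275 over vehicle 2 were higher and 1 lower (2 and 3 at an unadjusted p under 0.05). The ZNF705 zinc finger genes were the ones higher in both comparisons of corin. ZNF705D had a log2 signal of 4.95, 4.70 and 4.26 with corin, 2.85, 3.96 and 3.29 with MS-275 and 2.94, 2.96 and 2.77 with vehicle, so that corin was 3.37-fold above vehicle (adjusted p = 7.4e-05 from limma). ZNF705B was 2.39-fold and ZNF705G 2.29-fold higher than vehicle, and ZNF705A, at 1.70-fold (adjusted p = 0.00196 from limma), fell short of the fold. The ZNF705G signal was uneven with corin, at 4.02, 3.23 and 3.23. When each array was left out, 3 to 5 of the list were higher with corin than with vehicle, and 2 to 3 higher than with MS-275.

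None of the ZNF705 genes is a neighbour on chromosome 4, where the USP17L copies measured here lie. The measured neighbours on that chromosome were DRD5, a dopamine receptor gene, ZNF518B, HMX1, GPR78 and CPZ. Their log2 differences between corin and vehicle were 0.41, 0.34, 0.05, -0.23 and -0.24 in that order, none of them called. On chromosome 8, CLDN23, a claudin gene, was 2.32-fold higher and LONRF1, a ring finger gene, was lower (log2 difference -1.10) with corin than with vehicle. PRAG1 (log2 difference 0.91), TRMT9B (-0.31), SPAG11A (-0.04) and SPAG11B (-0.06) were not called. Most of the list was dim, with 5 of 15 at or above the median gene, and among these 1 was higher with corin than with vehicle and 0 with corin than with MS-275.

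Among the other ubiquitin-specific peptidases, 44 genes from USP1 onward, 1 was higher and 7 were lower with corin than with vehicle, and with MS-275 the counts were 1 and 0. By limma's adjusted p whatever the fold, 11 of the 44 were lower with MS-275 (14 at an unadjusted p under 0.05). Of all 14884 named genes, 2293 and 3159 were lower at these levels. USP2, whose product is known to stabilise cyclin D1, was the higher one in both, at 4.19-fold with corin and 2.60-fold with MS-275 over vehicle (adjusted p = 6.3e-08 and 1.0e-05 from limma). It did not reach the fold between corin and MS-275 (log2 difference 0.69), and its second probe gave 0.45 for corin and 0.30 for MS-275 against vehicle. Without vehicle replicate 3, or without corin replicate 2, 2 of these peptidases were higher with corin than with vehicle. USP13, which is known to act on the melanocyte factor MITF, had the largest fall with corin in the list. It was at 5.34, 5.03 and 5.01 with corin, 6.87, 6.90 and 6.85 with MS-275 and 7.41, 7.51 and 7.45 with vehicle, a log2 difference of -2.33 between corin and vehicle and of -1.75 between corin and MS-275 (adjusted p = 3.4e-09 and 1.1e-07 from limma).

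The other peptidases lower with corin than with vehicle were USP51, USP21, USP5, USP46, USP24 and USP40, at log2 differences of -1.88 to -0.996. Between corin and MS-275, USP20 was higher (log2 difference 1.06) and USP13 and USP51 were lower. With each array left out in turn, 6 to 7 of these peptidases were lower with corin than with vehicle. Between corin and MS-275, 2 to 3 were then lower with corin. USP42, a relative of USP17 by sequence, differed by 0.43 between corin and vehicle (adjusted p = 0.0028 from limma), short of the fold.

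Deubiquitinases of other classes were measured for 23 of 39 listed genes. With corin, OTUD7A and OTUD1, both of the OTU class, were higher than vehicle at 3.33-fold and 2.86-fold, and COPS6, a subunit of the COP9 signalosome, was lower (log2 difference -1.01). With MS-275, OTUD7A was higher than vehicle at 2.05-fold and 0 were lower (4 lower by limma's adjusted p whatever the fold, 10 at an unadjusted p under 0.05). OTUD7A lost this call without vehicle replicate 2 or without MS-275 replicate 2, and 0 of the list were then higher. For OTUD1, corin was also 2.15-fold above MS-275.

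Transcripts of 11 of 15 genes whose proteins have been described as substrates of USP17 or DUB3 were measured, and the arrays do not show protein levels. SNAI1, a repressor of E-cadherin, was at 9.84, 9.76 and 9.69 with corin, 8.46, 8.42 and 8.38 with MS-275 and 6.96, 6.84 and 7.11 with vehicle. Over vehicle this was 6.95-fold with corin and 2.73-fold with MS-275. MCL1, an inhibitor of apoptosis, was 2.04-fold higher with corin than with vehicle, a call lost without corin replicate 1, when 1 gene of the list was higher. Lower with corin were HAS2 (a hyaluronan synthase), CCNA2 (cyclin A2), CDC25A (a phosphatase that activates cyclin-dependent kinases), IFIH1 (the RNA sensor MDA5) and SNAI2.

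CDC25A, a well studied DUB3 substrate, was at 3.85, 4.104 and 3.95 with corin, 6.22, 6.12 and 6.17 with MS-275 and 7.33, 7.37 and 7.39 with vehicle. The log2 difference was -3.39 between corin and vehicle, -1.19 between MS-275 and vehicle and -2.20 between corin and MS-275 (adjusted p = 8.4e-11, 1.9e-06 and 7.6e-09 from limma). SUDS3, a subunit of the SIN3 deacetylase complex, differed by -0.34 between corin and vehicle (adjusted p = 0.0346 from limma), TWIST1 by 0.19 (adjusted p = 0.162 from limma), NFE2L2 by 0.50 (adjusted p = 7.5e-04 from limma) and RIGI by 0.84 (adjusted p = 7.7e-06 from limma), none of them past the fold. In all, the counts of higher and lower genes among the 11 were 2 and 5 for corin over vehicle, 1 and 3 for MS-275 over vehicle, and 1 and 4 for corin over MS-275.

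**Figure D4:**
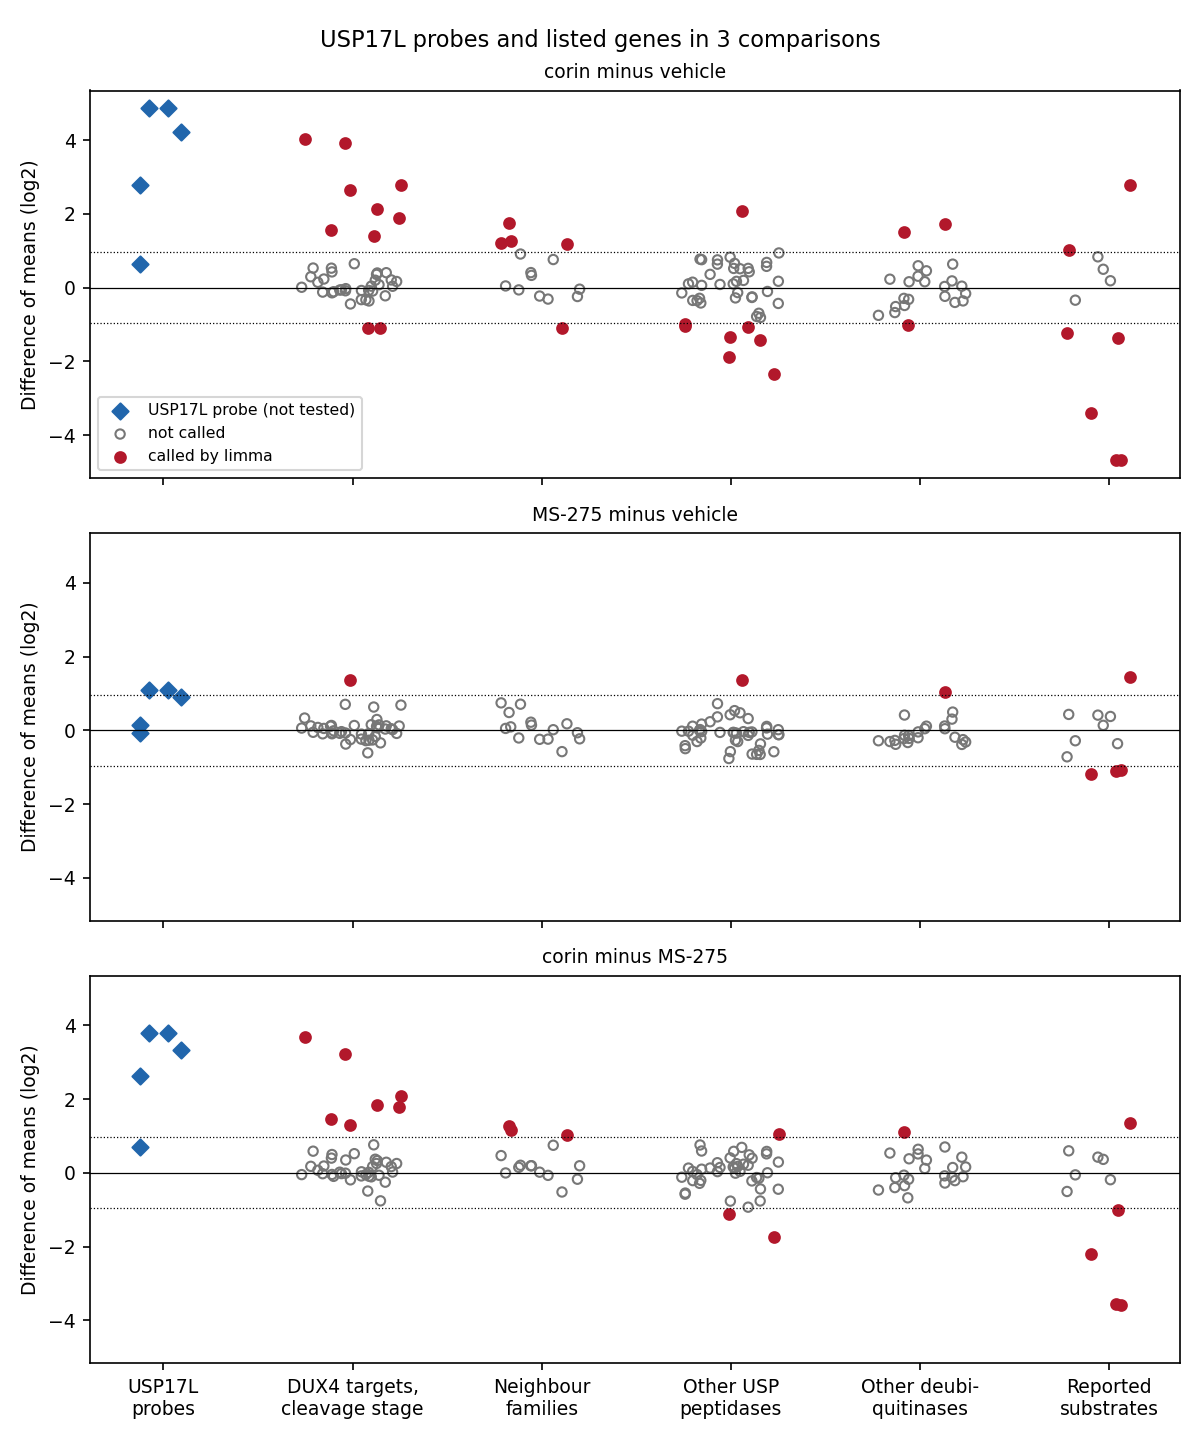
Log2 difference of group means (y axis) for the USP17L probes and the genes of 5 lists (x axis), with a panel for each comparison. Filled circles are genes called by limma past the dotted lines (0.965 log2 units), open circles are genes not called, and diamonds are the USP17L probes, which were not tested. The diamonds reach 4.87 for corin minus vehicle, 1.08 for MS-275 minus vehicle and 3.79 for corin minus MS-275.

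Markers were read to see what else moved with the groups. The 7 melanocyte markers measured had vehicle means between 7.97 for TYRP1 and 10.6 for PMEL, all above the median probe. With corin, 5 of the 7 were lower than vehicle (MITF, MLANA, SOX10, TYR and TYRP1) and 0 higher, and with MS-275 0 of 7 were called (3 lower by limma's adjusted p whatever the fold, and 3 at an unadjusted p under 0.05). Of 7 epithelial and keratinocyte markers, EPCAM alone was called, higher with both inhibitors (5.29-fold with corin and 2.09-fold with MS-275 over vehicle). By limma's adjusted p whatever the fold, 2 were higher and 1 lower with each inhibitor against vehicle. The lower gene was KRT10, at log2 differences of -0.58 with corin and -0.40 with MS-275. Without MS-275 replicate 2, 0 of the 7 were called with MS-275. With limma, none of 9 germ cell and pluripotency markers and none of 4 immune and fibroblast markers were called in any comparison. At an unadjusted p under 0.05 from limma, 0 of the 9 passed in any comparison, while 2 or 3 of the 4 did so in each. Of all 14884 named genes, 3764 higher and 4374 lower ones passed that level for corin against vehicle. The numbers were 2620 and 3159 for MS-275 against vehicle, and 3060 and 3635 for corin against MS-275. Passing was thus common, and the 2 or 3 of 4 are not read as a result about these markers. These are bulk RNA values, in which fewer cells of a type and less RNA per cell cannot be told apart. The part of the fall in melanocyte markers, or of EPCAM, in the USP17L values was not tested.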

How the data were processed

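Expression was measured on 9 Affymetrix Human Gene 2.0 ST arrays. Intensities were summarised by the authors with RMA in Partek, and the deposited log2 values cover 53617 probes on each array. The submitters' notes name hg19 as build. No further normalization or filter on low signal was applied. A probe stands for a transcript cluster, and probe numbers are those of the platform.

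A symbol was available for 16098 probes (0 with several, 37519 without), which stand for 14884 named genes. The probe with the highest mean stands for a gene with several (779 genes). RefSeq names came from another build than hg19, and its coordinates are left out. No USP17L sequence was at hand.

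Genes were tested with limma 3.58.1 in R 4.3.3 (lmFit and eBayes on all 9 arrays, prior degrees of freedom 5.07), which stands for the one-way model of the methods. A call needed an adjusted p (Benjamini-Hochberg) under 0.05 together with a log2 difference of at least 0.965, the threshold of the methods. On simulated arrays for corin against MS-275, with 14884 genes, 66% of genes changed by 1 log2 unit were called, 98% at 1.5 and 100% at 2 and at 3, and 0 unchanged genes. A change of 1 unit lies close to the 0.965 required, and unchanged genes lie far from it. The simulated shares therefore mainly reflect that threshold. The members and lists were chosen with earlier results of these data known. Named were all USP17L probes, the 8 genes closest in profile, the reported substrates, and up to 6 called genes of each list with the largest change. Others are marked or were named as examples. The number of arrays limits the precision. Plots were made in Python 3.11.15 (matplotlib 3.10.9).

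Settings varied were a block for the replicate number, a fit on the 2 groups compared alone, the one-way model without moderation, a fold of at least 2, genes at or above the median signal, the mean of a gene's probes, all probes fitted together, arrays centred on the median, quantile normalization, and each array left out in turn.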

Additional observations from a re-analysis of the deposited data

How the results depend on the processing

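The median log2 change of the 5 USP17L probes was 4.22 for corin against vehicle, 0.89 for MS-275 against vehicle and 3.33 for corin against MS-275. As a mean of the 4 distinct rows, which gives the dim probe more weight, it was 3.13, 0.51 and 2.62. It lay between 4.05 and 4.41, 0.77 and 1.00, and 3.16 and 3.52 when each array was left out. Fitted over all probes together, which tests more features, 2786 probes were higher and 2355 lower with corin than with vehicle, 923 higher and 194 lower with MS-275 than with vehicle, and 1466 higher and 1121 lower with corin than with MS-275. Over named genes these counts were 1137 and 1197, 476 and 77, and 379 and 587, and leaving out each array gave 1121 to 1183 and 1164 to 1231, 473 to 489 and 77 to 84, and 379 to 415 and 572 to 613. The replicate numbers did not pair the arrays, with correlations of same-numbered deviations between -0.06 and 0.02. With the replicate number as a block the named gene counts were again 1137 and 1197, 476 and 77, and 379 and 587, because every gene past the threshold kept an adjusted p under 0.05 (at most 0.00727). Without regard to size, the block moved the genes with an adjusted p under 0.05 to 7300 (7466 without it), 4104 (4401) and 5469 (5682). Over all settings other than the fit of all probes, the block and the left-out arrays included, the 102 counts over named genes stayed within 1.5 times of these values. Of the counts over the lists, that fit included, 952 did so and 20 did not. The 952 include counts of 0 that stayed 0, which are many in these lists and say little about stability. Dim probes, 3 arrays a group and shared signal between copies limit what the USP17L values can show.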
